A study of Drosophila melanogaster with 2 samples.

Results

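The assembled X chromosome of Drosophila melanogaster carried 391 of the 2094 peaks in the conservative list of places bound by CG17612-eGFP. The peaks were chosen by chromosome alone: every row of that list whose chromosome was the assembled X. They were set against the 1651 peaks on the autosomal arms 2L, 2R, 3L, 3R and 4. The remaining 52 lay on contigs outside the assembled arms, all assigned to X by the contig names. The material was whole embryos of 0 to 24 hours from a transgenic fly strain that makes CG17612 with enhanced green fluorescent protein (eGFP) as a tag. Chromatin was sonicated and precipitated with an antibody against GFP, although the antibody field of the labels names CG17612. The 2 samples were biological replicates of 1 group with the same genotype and no treatment, so no condition was compared. The embryos' sex was not collected, so the dose of X in the chromatin is unknown. Whole embryos mix all cell types, and the regulatory sequence that drives the fusion is not given in the labels.

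In flies, females have a pair of X chromosomes and males a single X, and males make up for the lower dose by raising transcription from their X. That task falls to the MSL complex, which holds MOF, an enzyme that acetylates histone H4, and the non-coding RNAs roX1 and roX2. ChIP-seq sequences the DNA fragments that come down with a protein, and a peak is a stretch where fragments pile up. The summit is the base of highest signal in that stretch. Peak scores here are the authors' signal values, without a stated scale, and serve to rank and describe peaks.

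Letters under the X summits are shown first. An 11-base stretch, TGCATACTTTT, returned in 13 of the 391 windows that reach 50 bp to each side of X summits. It holds TGCATA, the core of the recognition sequence of Su(Hw), the zinc-finger insulator protein that binds the gypsy transposon. The first 5 windows were picked for holding the whole stretch outside UTRs. They are an intron of if, which encodes the integrin subunit alpha-PS2 (chrX:16767207-16767307, minus strand), an intron of kek5, of the Kekkon family of transmembrane proteins (chrX:19415368-19415468, plus strand), an intron of Cngl, named for cyclic nucleotide-gated channels (chrX:15402015-15402115, minus strand), an intron of CG42450 (chrX:18815103-18815203, minus strand), and intergenic DNA for which Diedel3 has the nearest start site (chrX:19037291-19037391, plus strand). The other two, ppk8 (chrX:3570495-3570595, plus strand) and norpA (chrX:4324940-4325040, plus strand), are intron windows of high score without the whole stretch. Sequences are from the Release 6 genome (dm6), written 5′ to 3′, and capitals mark AAAAGTAT, AAAGTATG, AAGTATGC and AGTATGCA, the overlapping words of 8 bases that make up the stretch, wherever they occur on either strand. TGCATA outside these words is not marked, and it occurs, read on the other strand, in the norpA and CG42450 windows.
if: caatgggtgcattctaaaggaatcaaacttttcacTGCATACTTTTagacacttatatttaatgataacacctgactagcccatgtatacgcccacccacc
kek5: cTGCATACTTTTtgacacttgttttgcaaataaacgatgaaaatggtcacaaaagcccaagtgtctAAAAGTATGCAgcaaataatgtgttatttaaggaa
Cngl: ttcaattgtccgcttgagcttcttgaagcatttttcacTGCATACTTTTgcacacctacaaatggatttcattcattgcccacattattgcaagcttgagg
CG42450: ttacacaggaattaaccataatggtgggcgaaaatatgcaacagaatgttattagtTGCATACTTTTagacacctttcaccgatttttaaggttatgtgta
Diedel3: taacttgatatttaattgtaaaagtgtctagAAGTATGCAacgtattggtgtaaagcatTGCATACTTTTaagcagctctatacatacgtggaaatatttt
ppk8: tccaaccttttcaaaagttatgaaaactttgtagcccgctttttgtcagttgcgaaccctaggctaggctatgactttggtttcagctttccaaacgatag
norpA: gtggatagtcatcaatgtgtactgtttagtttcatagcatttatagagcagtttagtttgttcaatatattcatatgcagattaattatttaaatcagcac
The kek5 window holds the whole stretch on each strand, and 7 X windows hold 2 or more separate marked stretches.

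The strongest X peaks lay at promoters and in introns of genes with varied roles, led by Ugalt, ppk8 and ph-p. The highest, chrX:2703750-2704027, had its summit 37 bp upstream of the start site of Ugalt, the UDP-galactose transporter of the Golgi, with a score of 1229. In the replicates' own lists it scored 572 in replicate 1 and 672 in replicate 2, and the next highest X peak in replicate 2 was that of ph-p at 374. In an intron shared by ppk8, a pickpocket-family channel gene, and DIP-alpha, which encodes a neuronal adhesion protein, a peak at chrX:3570399-3570677 scored 1051. Its replicates were far apart, at 746 and 299. Ranks 3 and 18 went to a pair of summits between different start sites of ph-p, which encodes the Polycomb group protein Polyhomeotic-proximal. The first of them, chrX:2137232-2137467, scored 783 (replicates 406 and 374) and lay 493 bp upstream of one start site, and the second, chrX:2137740-2137912, scored 379 (179 and 206) and lay 495 bp downstream of another. In 17 of the 20 peaks the replicate scores were within 1.5 times of each other, and the other 3 (ppk8, the peak near v, and Hs3st-B) were higher in replicate 1.

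Other members of the 20 fell in introns. The peak at chrX:3742106-3742337 in Tlk, the Tousled-like kinase gene, scored 584 (replicates 294 and 280), and that at chrX:4324858-4325104 in norpA, the phospholipase C of phototransduction, scored 510 (254 and 256). CG32772 (chrX:4910224-4910494) held a peak of score 713 (346 and 362) and CG3726 (chrX:5918804-5919032) a peak of score 553 (274 and 276). Introns of Hs3st-B, a heparan sulfate sulfotransferase gene, and of NFAT, a transcription factor gene, held peaks of 418 and 403. In Hs3st-B the score was higher in replicate 1 (288 against 130), in NFAT in replicate 2 (169 against 240).

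Promoter members of the 20 included Gapdh2, a glycolytic enzyme gene, at chrX:15867851-15868092 with a score of 485 (replicates 268 and 212), 174 bp upstream of the start site. The promoters of MFS10, CG17896, TRAM (a protein of the endoplasmic reticulum translocation channel) and moody (a receptor of the blood-brain barrier glia) followed with 422, 409, 394 and 379. The non-coding gene lncRNA:CR44619 had summits 471 bp upstream and 494 bp downstream of a start site, with scores of 625 and 467. A further pair lay in UTRs: the tenth peak, chrX:10921761-10921972, in the 3′ UTR of CG43901 and 2104 bp upstream of v, the tryptophan dioxygenase gene vermilion, scored 477 (324 and 155), and the sixteenth, chrX:17178606-17178792, in a 5′ UTR of baz, the Par-3 polarity gene, scored 397 (174 and 227). None of the 20 had a start site of a second gene on the other strand within 500 bp.

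**Figure D1:**
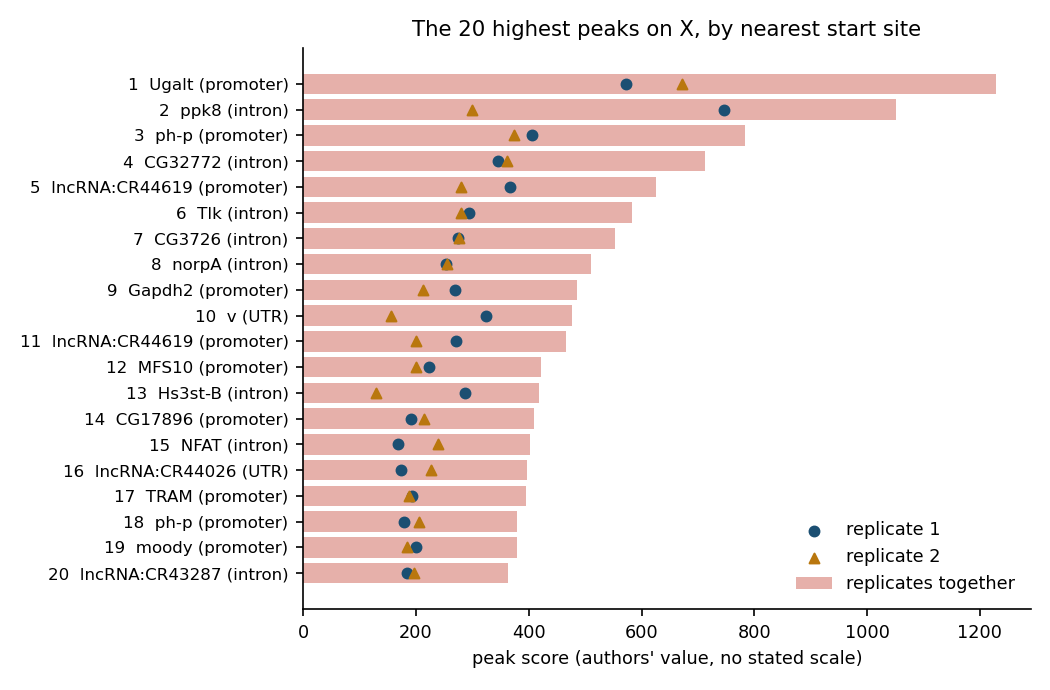
Horizontal bars give the score of each of the 20 highest X peaks in the list of both replicates together, circles its score in replicate 1 and triangles in replicate 2 (authors' values, no stated scale), labelled by rank, the gene of the nearest start site and the class of the summit. Ugalt leads with 1229, and the replicates of ppk8 are the farthest apart (746 and 299).

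X peaks lay in introns more often than autosomal peaks, and in promoters less often. Each summit was put in 1 class: promoter (no more than 500 bp from the start of a transcript), then UTR or coding exon, then intron or non-coding exon, then intergenic. On X, 189 of 391 summits (48.3%, 95% Wilson interval 43.4 to 53.3) lay in introns, against 504 of 1651 on the autosomal arms (30.5%, 28.4 to 32.8), an odds ratio of 2.13 (Fisher's exact test, two-sided, Benjamini-Hochberg adjusted over 13 comparisons, adjusted p = 9.13e-10). The arms 2L, 2R, 3L and 3R gave 32.4%, 28.3%, 27.6% and 33.5%, all below the interval of X. Promoters held 158 X summits (40.4%, 35.7 to 45.3) against 838 (50.8%, 48.3 to 53.2), with an odds ratio of 0.658 (exact, adjusted p = 0.000814). The 4 large arms gave 48.1%, 57.2%, 48.8% and 49.7%. Introns made up 44.1% of the bases of X and 39.5% of the autosomal bases, so that intron summits were 1.10 times as common as intron bases on X and 0.773 times on the autosomes. Promoter summits were 3.21 and 3.69 times as common as promoter bases. Which class was the larger on X depended on the setting: with a promoter limit of 1000 bp, promoters held 213 and introns 148 of the 391, and in replicate 1's own list (without replicate 2) promoters held 111 and introns 109 of 251.

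Smaller classes differed too, with less support from the single replicates. Coding exons held 2 X summits (0.512%), at scores of 73.4 (within kirre and rst) and 12.8 (within kirre and Syx4), against 59 (3.57%), an odds ratio of 0.139 (exact, adjusted p = 0.00103). Replicate 1's and replicate 2's own thresholded lists had no X summit in a coding exon, and the odds ratios of 0.119 and 0.281 (0.5 added to each cell) had adjusted p = 0.0825 and 0.381 (exact). Among peaks above the median score, 0 of 219 on X and 2 of 802 on the autosomes lay in coding exons, and the call was lost (odds ratio 0.729, exact, adjusted p = 1). Between genes lay 28 X summits (7.16%, 5.0 to 10.2) against 229 (13.9%, 12.3 to 15.6), an odds ratio of 0.479 (exact, adjusted p = 0.000784), which became 0.678 (exact, adjusted p = 0.138) without replicate 2. Intergenic DNA outside promoters was also the smaller share of X, 22.6% of its bases against 28.2%. Intergenic summits were 0.317 times as common as intergenic bases on X and 0.491 times on the autosomes. UTRs outside promoters held 14 X summits (3.58%, 2.14 to 5.92) against 21 (1.27%, 0.833 to 1.94), an odds ratio of 2.88 (exact, adjusted p = 0.00698), and 2.72 (exact, adjusted p = 0.0782) without replicate 2. UTR bases were the larger share of X too, 6.89% against 4.85%, with summits 0.520 and 0.262 times as common. Coding exons outside promoters made up 13.9% of the bases of X and 13.7% of the autosomal bases. The UTR members ran from the 477 of the CG43901 peak down to 16.2 in a 5′ UTR of CG8128, and included 5′ UTRs of baz, eas and Raf and 3′ UTRs of APC7, stas and NetB. Neighbouring peaks are not independent, so these tests count places and not samples, and the intervals cover counting error only.

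**Figure D2:**
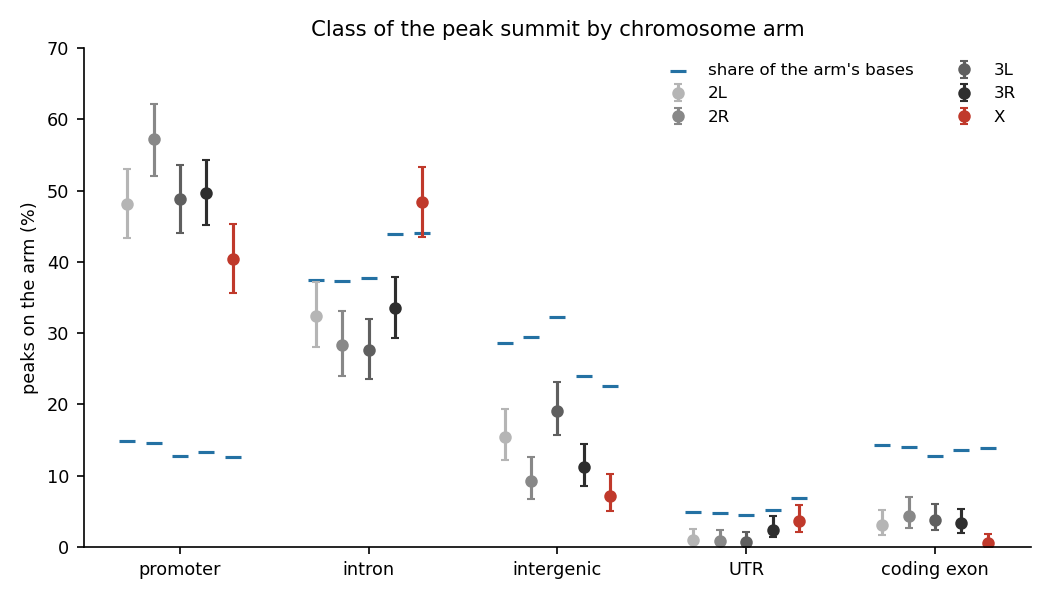
Points give the share of each arm's summits in each class (percent) with 95% Wilson intervals, X in red and the 4 large autosomal arms in grey, and blue dashes the share of the arm's bases in that class. Of the 5 arms shown, X has the highest intron share (48.3%) and the lowest promoter share (40.4%), while its share of intron bases (44.1%) is close to that of 3R (43.9%).

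Promoter peaks on X had start sites on both strands nearby, here called divergent, less often than those on the autosomes. Whether the genes point away from each other, with the summit between them, was not checked. Of the 158 promoter summits, 32 (20.3%, 14.7 to 27.2) had start sites on both strands within 500 bp, against 316 of 838 (37.7%, 34.5 to 41.04) on the autosomes, an odds ratio of 0.420 (Fisher's exact test, adjusted p = 0.000109). Among the start sites themselves, 22.2% of 3907 on X and 24.9% of 19677 on the autosomes had a start site on the other strand within 500 bp. The highest X members of this kind were the pair ND-ASHI, a subunit of respiratory complex I, and Fum1, the fumarase gene, with a score of 236 (replicates 105 and 132), then bves and Stt3A, a subunit of oligosaccharyltransferase, with 186 (130 and 65.7). TH1 and mei-41, the ATR kinase of the DNA damage response, shared a peak of 185 (98.0 and 92.2). Next came mthl1 and SNRPG (181), CG2004 and CG1785 (165), Rtel1 and IntS6, a subunit of the Integrator complex (155), and spidey and dpr14 (153). ND-24, also of complex I, and corolla, a gene of the synaptonemal complex, shared one of 152 (97.6 and 49.5). Among those further down were cm and sloth1 (111), RpL22 and lncRNA:CR44966 (110), and mys, the beta-PS integrin gene, with fs(1)h (99.5).

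The median distance of X summits to the nearest start site was 788 bp, with quartiles of 228.5 and 2609 bp, against 487 bp (124.5 and 2179). More than 2000 bp away were 118 X summits (30.2%, 25.8 to 34.9) and 433 autosomal ones (26.2%, 24.2 to 28.4), a difference that missed the threshold (odds ratio 1.22, Fisher's exact test, adjusted p = 0.134). Replicate 2's own list (without replicate 1) gave 1.42 (exact, adjusted p = 0.0330). The farthest were 3 summits within lncRNA:flam, the flamenco locus that is a source of piRNAs against transposons. They lay up to 134572 bp from its start site, with scores of 67.6, 66.4 and 15.8. Intron and non-coding exon were not told apart there.

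**Figure D3:**
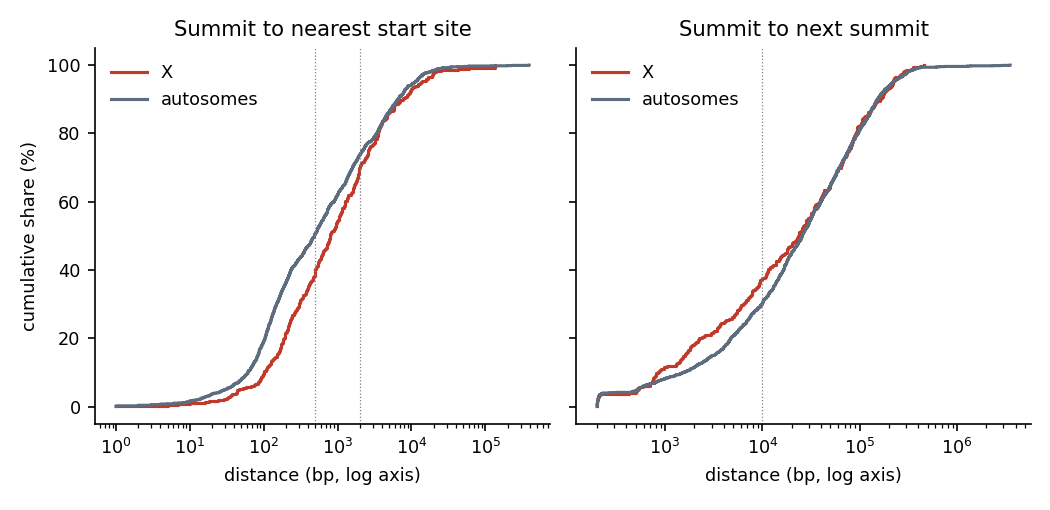
Curves give the cumulative share (percent) of summits by distance to the nearest start site (left, dotted lines at 500 and 2000 bp) and of gaps by distance to the next summit on the arm (right, dotted line at 10 kb), on log axes, X in red and autosomes in grey. The curves for start sites part below 2000 bp (medians 788 and 487 bp), and those for gaps part below 10 kb and then run together (medians 23286.5 and 25626.5 bp).

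X peaks formed tight groups in a few genes. The fullest held 10 summits within 16874 bp in and beside CHES-1-like, a forkhead-family gene, with scores from 56.6 to 363, and 8 of them lay in its introns outside promoters. In Raf, the kinase of the MAP kinase cascade, 6 summits lay within 7901 bp, from 80.1 to 231, none of them in a promoter. Several groups tied at 5 summits within 20 kb: the first along X, at Hr4, which encodes a nuclear receptor, spanned 16176 bp, from 3.16 to 161, and others were tighter, such as that at egh (11653 bp) and that in Evi5 (6078 bp, from 2.86 to 153). Over whole genes and not a window of 20 kb, introns of Tlk (69.8 kb long) held 5 summits (98.6 to 584). The gene body of kirre, a gene of myoblast fusion 394 kb long, held 8 in all (12.8 to 191). Some of the summits in these groups and genes are overlapping calls: 30 X peaks (7.67%) and 134 autosomal ones (8.12%) overlapped another peak of the list, and all 15 X peaks with a score under 25 were among them.

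Gaps to the next summit had a median of 23286.5 bp on X and 25626.5 bp on the autosomes. Below the median gap of all arms, 25413.5 bp, were 202 of 390 X gaps (51.8%) and 816 of 1646 autosomal gaps (49.6%), with no difference past the threshold (odds ratio 1.09, Fisher's exact test, adjusted p = 0.464). Below 10 kb the counts were 147 and 498, an odds ratio of 1.39 (exact, adjusted p = 0.00769), and replicate 2's own list at its own median gap gave 1.51 (exact, adjusted p = 0.00515). With at least 2 other summits within 10 kb were 129 X peaks (33.0%) and 307 autosomal peaks (18.6%).

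Along X the peaks were uneven. The first summit lay at 493994 and the last at 21768008, in flamenco, and the final 1774263 bp toward the centromere held none. Beyond 22 Mb the annotation has 121 start sites and the unthresholded list 784 peaks, and neither replicate's thresholded list had any there. The fullest interval of 1 Mb, from 2 to 3 Mb, held 32 peaks, among them Ugalt, ph-p, Raf, sgg and egh, at 14.0 per 100 start sites, and that from 7 to 8 Mb, with CHES-1-like and Sxl, held 29 at 20.1 per 100 start sites. The longest gap between neighbouring summits, 456313 bp ending at norpA, contained 67 start sites.

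Scores in the list of both replicates together ran higher on X, but not in either replicate's own thresholded list. The median was 105.5 on X (quartiles 81.1 and 151.7) and 96.6 on the autosomes (75.2 and 142.3). Replicate scores of these same peaks, where both replicates had one, also had higher medians on X (not tested). They were 55.7 against 52.8 in replicate 1 and 50.4 against 45.9 in replicate 2. Before thresholding the medians were lower on X, at 18.8 against 21.8 for both replicates together. The ranked lists of replicates 1 and 2 gave 12.8 against 14.5 and 11.0 against 12.2. Above 98.2, the common median of the conservative list, were 219 X peaks (56.0%, 51.1 to 60.8) and 802 autosomal peaks (48.6%, 46.17 to 50.99), an odds ratio of 1.35 (Fisher's exact test, adjusted p = 0.0139). In replicate 1's own list (without replicate 2) the odds ratio was 1.01 (exact, adjusted p = 0.944) and in replicate 2's (without replicate 1) 0.966 (exact, adjusted p = 0.840), with medians of 69.6 against 69.5 and of 60.6 against 61.6. Among promoter peaks alone it was 1.19 (exact p = 0.336) and among intron peaks alone 1.42, with 99 of 189 against 220 of 504 (exact p = 0.0489, both without adjustment). Peaks narrower than the common width of 324 bp numbered 56 (14.3%, 11.2 to 18.1) and 174 (10.5%, 9.15 to 12.1), just short of the threshold (odds ratio 1.42, exact, adjusted p = 0.0525), which the less strict list passed (1.43, exact, adjusted p = 0.0398).

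X peaks were found in both replicates' own thresholded lists more often than autosomal ones. Both lists held 190 of the 391 (48.6%, 43.7 to 53.5), against 651 of 1651 (39.4%, 37.1 to 41.8), an odds ratio of 1.45 (Fisher's exact test, adjusted p = 0.00241). Another 48 X peaks overlapped replicate 1 alone, 67 replicate 2 alone and 86 neither. Counted over replicate 2's own list (without replicate 1), the odds ratio was 1.16 (exact, adjusted p = 0.347), and among peaks above the median score 1.28 (exact, adjusted p = 0.258). Over the 385 X peaks with a score in both replicates, the median was 55.7 in replicate 1 and 50.4 in replicate 2, replicate 1 was higher in 237 (61.6%), and Spearman's rho was 0.637 across peaks, which share libraries and are not independent replicates. The share of all arm peaks that lay on X was 19.1% in the conservative list, 19.0% in the less strict list, and 21.4% in replicate 2, with 251 of 1255 in replicate 1. Of the 25834 X peaks ranked before thresholding, 1.51% entered the conservative list, against 1.40% of 117773 (odds ratio 1.08, exact, adjusted p = 0.187). For replicate 1's lists (without replicate 2) this odds ratio was 1.18 (exact, adjusted p = 0.0481) and for replicate 2's (without replicate 1) 1.37 (exact, adjusted p = 4.77e-05).

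**Figure D4:**
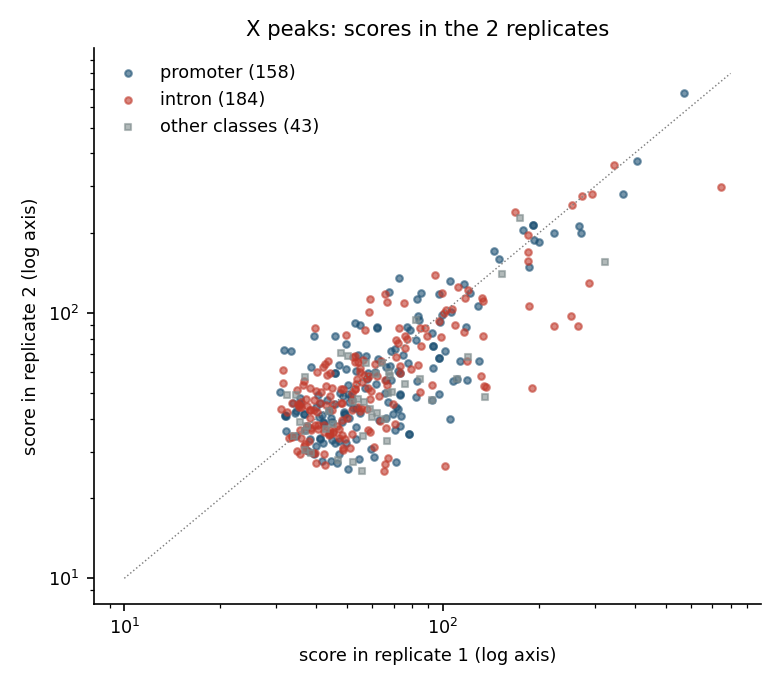
Each point is an X peak with a score in both replicates, at its score in replicate 1 and in replicate 2 on log axes, by class of the summit, and the dotted line marks equal scores. Most peaks sit near 50 in both, and several intron peaks lie well below the line, among them ppk8 (746 and 299).

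A smaller share of protein-coding genes had a summit near a start site on X than on the autosomes. A gene counted as bound when a summit lay within 500 bp of a start site, which held for 8.71% of the 13945 protein-coding genes on all arms. On X 157 of 2196 were bound (7.15%, 6.14 to 8.30), against 1057 of 11749 (9.0%, 8.49 to 9.53), an odds ratio of 0.779 (Fisher's exact test, adjusted p = 0.00718). Replicate 1's list (without replicate 2) gave 0.812 (exact, adjusted p = 0.0782), replicate 2's (without replicate 1) 0.829 (exact, adjusted p = 0.109), and a distance of 1000 bp 0.862 (exact, adjusted p = 0.0763). Another 19 bound X genes were non-coding RNA genes, among 180 bound genes of all kinds. The lower share of bound genes is not a lower density of peaks. Counting all peaks, X had the most per 100 start sites, at 10.01 (not tested). The arms 2L, 2R, 3L, 3R and 4 had 8.72, 7.53, 9.33, 8.33 and 1.09. Per Mb, X had 16.61 peaks, below 2L (17.05) and above the other arms.

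Among genes of basic cell function, those of the cytoplasmic ribosome had the most bound members. Of 15 cytoplasmic ribosomal protein genes on X, 5 were bound, RpS28b (score 164, replicates 107 and 55.5), RpL22 (110), RpS10b (107), RpS15Aa (106) and RpS6 (68.0), against 28 of 78 on the autosomes. In each of the 5 the replicate 1 score was the higher. None of 11 mitochondrial ribosomal protein genes on X was bound, against 11 of 62, and none of 8 genes for RNA polymerase II and the general transcription factors, against 15 of 66. With 7.15% of all protein-coding genes on X bound, a count of 0 in lists this short is near the background of X, here and in the lists that follow. Among genes of oxidative phosphorylation 2 of 12 were bound, ND-ASHI and ND-24, against 5 of 75. No X-linked gene for a translation factor (0 of 7), an aminoacyl-tRNA synthetase (0 of 3) or a heat shock protein or chaperone (0 of 6) was bound, against 7 of 47, 5 of 30 and 6 of 33. A mixed list of metabolic enzymes, kinases and other proteins, among them actin (Act5C), cohesin (SMC3) and the yolk proteins, had 3 of 17 bound: Ugalt, Gapdh2 and Hex-A, a hexokinase gene (138, replicates 68.9 and 72.02). In cell cycle and DNA repair, mei-41 and Top1, the topoisomerase I gene (119), were bound of 17.

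Among genes of X dosage and sex, as among all protein-coding X genes (7.15% bound), most had no summit near a start site. None of 3 dosage compensation genes on X was bound: the nearest summit to roX1 was 5980 bp away, to roX2 44005 bp and to mof, which encodes the MOF enzyme, 19304 bp. Of 6 X-linked genes of sex determination, the master gene Sxl alone was bound, 471 bp from a start site, with a score of 94.4 (replicates 45.9 and 45.3).

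Lists of chromatin, developmental, neuronal and marker genes on X had 0 to 4 bound members each, beside a share of 7.15% over all protein-coding X genes, and are given as counts. The Polycomb group had 1 of 3 (ph-p), the Trithorax and Brahma genes 1 of 5 (fs(1)h, a BET bromodomain gene) and the insulator genes 0 of 1. No X-linked Notch pathway gene was bound (0 of 4), and Notch itself had a summit within its body, with a score of 98.3 and 27624 bp from its start site. In the Wnt, Hedgehog and JAK-STAT pathways sgg, the GSK-3 kinase gene, was bound of 10, with a score of 210 (replicates 105.9 and 101.2). Of 25 patterning transcription factor entries 1 was bound (CG12236, 65.3). A list of 35 mostly neuronal genes, which also holds otu and sesB, had 2 bound. These were elav, the RNA-binding protein that marks neurons (313, replicates 150 and 159), and dnc, the cAMP phosphodiesterase gene of learning (237, replicates 121 and 119). Unbound neuronal genes could still carry strong intron peaks, as norpA (510) and ppk8 (1051) did. Among 25 classical marker genes 4 were bound: cm, a subunit of the AP-3 complex (111), amn, a neuropeptide gene of memory (89.1), ras, the IMP dehydrogenase gene raspberry (78.9), and Bx, a LIM-domain gene (72.1).

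Under the X summits, consensus motifs were compared with a window of the same size centred 300 bp to the right in the same peaks. TATAAA, the letters of the TATA box, was in 78 summit windows (19.9%) and 36 flanks (9.21%), with 72 peaks holding it at the summit alone and 30 in the flank alone (exact McNemar test, two-sided, adjusted over 12 motifs, adjusted p = 0.000466). It was not confined to promoters: 42 of 158 promoter summits (26.6%) and 29 of 189 intron summits (15.3%) held it. TGCATA was in 54 (13.8%) and 21 (5.37%) (exact, adjusted p = 0.00085). The other 2 past the threshold were rarer at the summit: CACACACA, in 4 against 20 (exact, adjusted p = 0.00618), and GAGAG, the word of GAGA factor, in 33 (8.44%) against 63 (16.1%) (exact, adjusted p = 0.00694). Both strands were searched, CGATA overlaps TATCGATA, and GAGAG overlaps GAGAGAGA. The other motifs were TATCGATA (DRE, 0 summit windows), CGATA (BEAF-32, 55), GGTCACACT (Motif 1, 0), GAGAGAGA (2), CAGGTAG (Zelda, 2), AGGTGGCG (CTCF, 3), and the E-boxes CACGTG (3) and CAGCTG (9), and a count of 0 of 391 allows a share of up to 0.767%. Of all stretches of window size laid end to end along X, 11.0% held TATAAA, 6.42% TGCATA, 3.02% CACACACA and 11.5% GAGAG.

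Between X and autosomal summits, 0 of 12 motifs differed past the threshold by Fisher's exact test with adjustment over the motifs, and 2 had an unadjusted p under 0.05. These were TATCGATA, in 0 X and 23 autosomal windows (1.39%, exact, adjusted p = 0.162), and TGCATA, in 13.8% and 10.2% (exact, adjusted p = 0.278). X summit windows had a median GC content of 33.7%, autosomal ones 34.7%, and whole arms 42.5% and 42.1%. The GC content of the flanks was not measured.

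Words found on the autosomes were then looked up on X. The 20 words of 8 bases that most separated summits from flanks on 2L, 3L and 3R were tested in the X peaks, which took no part in the ranking, and 6 passed. AAAGTATG was in 28 X summit windows and 1 flank (exact McNemar test, adjusted over 20 words, adjusted p = 2.24e-06), AAGTATGC in 29 and 2 (exact, adjusted p = 4.63e-06), AGTATGCA in 18 and 0 (exact, adjusted p = 5.09e-05), and AAAAGTAT in 28 and 4 (exact, adjusted p = 9.65e-05). These 4 overlap and spell the stretch of the windows shown for if, kek5 and Cngl, read on the other strand. The other 2 were AT-rich: ATATTTAA in 21 and 4 (exact, adjusted p = 0.00364) and AAAAATTA in 16 and 3 (exact, adjusted p = 0.0148). At least 1 of the 20 words was in 164 X summit windows (41.9%), in 68 X flanks (17.4%) and in 692 autosomal summit windows (41.9%). The autosomal share includes the 1282 windows of 2L, 3L and 3R on which the words were picked. The X and autosomal summit shares are therefore not on equal terms.

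At least 1 of the 4 overlapping words was in 36 X windows (9.21%, 6.72 to 12.5) and 85 autosomal windows (5.15%, 4.18 to 6.32), against 1.66% and 1.83% of all stretches of that size along the arms. This grouping was made after the values were seen and is a description. Introns held 22 of the 36, intergenic DNA 7, promoters 6 and UTRs 1. Among promoter peaks alone the shares were 3.8% on X and 2.51% on the autosomes, and among intron peaks 11.6% and 8.13%. The 36 had a median score of 125.6, and the other 355 X peaks 102.7. They included 6 of the 50 highest X peaks, led by the CG43901 peak (477), CG17896 (409) and if (356, replicates 265 and 89.6). Intergenic DNA upstream of Diedel3 held 3 of them within 16521 bp of its start site, with scores of 146, 133 and 124. With all peaks that hold a word left out, the odds ratio of X against autosomes was 2.12 for introns (Fisher's exact test, adjusted p = 7.78e-09) and 0.686 for promoters (exact, adjusted p = 0.0036).

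**Figure D5:**
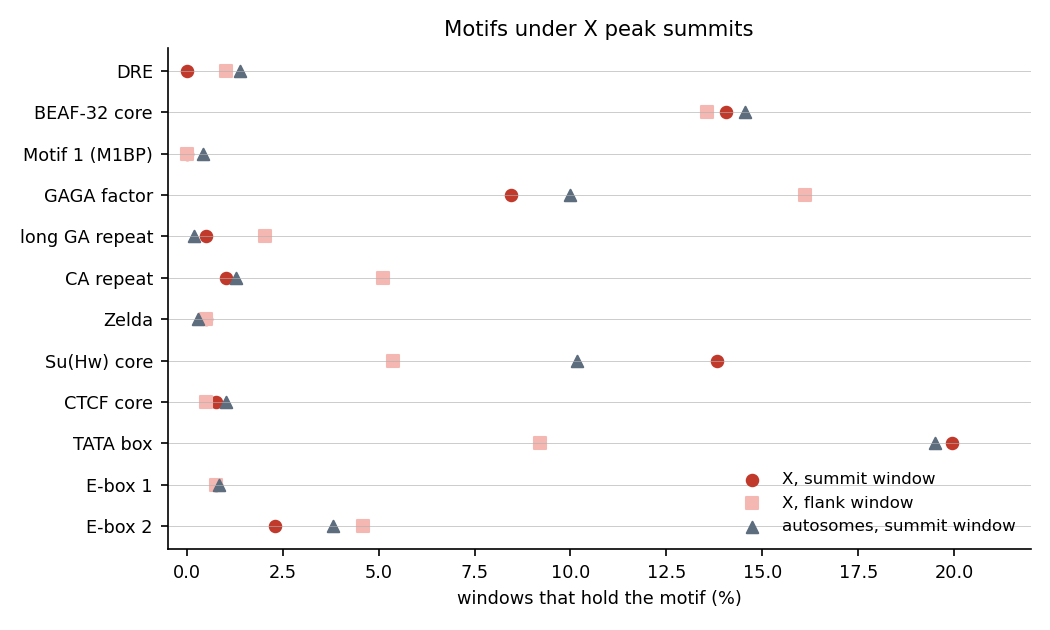
Points give the share of windows of 50 bp to each side of a centre (percent) that hold each motif at X summits (red circles), in X flanks 300 bp to the right (pink squares) and at autosomal summits (grey triangles). The TATA box (19.9% against 9.21%) and the Su(Hw) core (13.8% against 5.37%) stand above their flanks on X, and GAGA factor's word (8.44% against 16.1%) below.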

How the data were processed

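ChIP-seq peak lists of 2 biological replicates (1 group) were used. Per the deposited description files, coordinates follow dm6, the conservative and less strict lists come from both samples' alignments, and each sample has a list of its own. Aligner and peak caller: not given in the sources used here. Scores are the authors' deposited signal values, without a stated scale. Per the file contents, the authors' ranked lists hold the −log10 of the global irreproducible discovery rate (IDR), and no conservative peak was below 2.00. Read depth is unknown, and a control experiment named in the labels was not analysed here.

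Summits were placed against the Ensembl release 115 annotation without transposable element entries (18164 genes, 23584 start sites on 6 arms) and the Release 6 genome, with 1-based coordinates. A replicate's score for a peak is that of its highest overlapping ranked peak. X and autosomal counts were compared by Fisher's exact test, summits and flanks by the exact McNemar test. Both were two-sided, and p was adjusted by Benjamini-Hochberg separately for each set of tests, called below 0.05 (Python 3.11.15, NumPy 2.4.6, SciPy 1.17.1). Scripts were tested on simulated data. Genes named are those of the 20 highest X peaks, up to 4 bound members of each of 19 lists by score, and 3 clusters with the most summits within 20 kb (ties taken in order along X). The other genes named, such as the divergent pairs, the exon, UTR and word peaks, flamenco, RpS6, Notch, mof, roX1 and roX2, were chosen after their values were seen. The members and lists were chosen with earlier results of these data known. The X-against-autosome shares were also computed, as far as each setting applies, on the less strict list (not for passing IDR), on the 2 replicate lists, with peaks above the median score, neighbours within 5 kb counted once and without chromosome 4. Start-site classes and bound genes were recomputed at 250 and 1000 bp, the classes also with start sites of protein-coding genes alone, and the motif counts with another window or flank and on each replicate list. Gene lists, clusters and intervals along X have no alternative.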

Additional observations from a re-analysis of the deposited data

Results flagged for a closer look

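Besides the 391 peaks on the assembled X, the conservative list held 52 peaks (2.48% of 2094) on 48 contigs. All of these lie outside the assembled arms, and the contig names assign them to X. They lie outside every comparison made here, and were flagged as signal in data not otherwise used. Their scores had a median of 92.2 and ran from 6.74 to 243. These contigs have no annotation in the arms used here, so no class or gene was given to them, and what distinguishes them from the assembled X was not tested.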

How the results depend on the processing

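Of 109 alternatives to a test, 88 kept the direction and the side of the threshold, 14 lost the threshold, 6 passed it and 1 reversed. The 10 alternatives to a count of motifs or words past the threshold stayed within 1.5 times of it, and of 7 alternatives to a share without a test 2 moved it. The promoter, intron and divergent odds ratios kept both under every alternative run, within 0.527 to 0.733, 1.96 to 2.36 and 0.309 to 0.506. With a single replicate's list, odds ratios were 0.119 to 0.281 for coding exons, 0.438 to 0.678 for intergenic DNA, 2.72 to 3.15 for UTRs, 1.25 to 1.42 for distal summits, 0.966 to 1.01 for high scores (reversed without replicate 1), 1.25 to 1.51 for close spacing, 1.16 to 1.58 for support by both replicates, 0.812 to 0.829 for bound genes and 1.18 to 1.37 for passing IDR. Among peaks above the median score they were 0.729 for coding exons, 0.591 for intergenic DNA and 1.28 for both replicates, and each of these calls was lost. A limit at the 75% point of scores gave 1.16 for high scores, promoter peaks alone 1.19 and intron peaks alone 1.42. The less strict list gave 1.43 for narrow peaks, a limit of 10 kb 1.39 for close spacing, and 1000 bp 0.862 for bound genes. The share of X windows with a joined word was 12.7% without replicate 2 and 3.8% among promoter peaks, alternatives chosen after seeing the data, as were the left-out word peaks and the scores within a class. The causes were not tested. No paired analysis was possible because both samples belong to 1 group. Read depth is unknown, so a missing peak is not an absence of binding, and 2 replicates from whole embryos limit every value.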

Other observations

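X peaks whose window held 1 of the 4 joined words scored higher in replicate 1 more often than the rest. Of 36, replicate 1 was higher in 28 (77.8%, 95% Wilson interval 61.9 to 88.3), with medians of 71.6 in replicate 1 and 52.9 in replicate 2. Among the 349 X peaks without a word and with a score in both, it was higher in 209 (59.9%, 54.7 to 64.9), with medians of 53.8 and 50.4. On the autosomes the counts were 69 of 84 (82.1%, 72.6 to 88.9) and 995 of 1551 (64.2%, 61.7 to 66.5). The peaks of if (265 and 89.6), kek5 (191 and 52.2) and Cngl (135 and 53.1) were among the most uneven of those shown. The pattern was seen in these values and was not tested.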
